A study of Gallus gallus with 106 samples.

Results

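The opening 12 h of differentiation in hypoxia were described in primary satellite cells of the broiler breast muscle (Pectoralis major, wild type) by targeted RNA-seq, in which primers for chosen transcripts amplify cDNA before sequencing. The groups were chosen by their labels: 6 biological libraries of cells kept for 12 h in differentiation medium at 1% O2 (hypoxia 12 h), and 5 of cells harvested at 20% O2 just before the medium was changed (normoxia 0 h), together 11 of the 53 biological libraries in the series. All cells had first grown in a serum-rich medium with basic fibroblast growth factor, which the differentiation medium lacked. A further 6 libraries of cells kept for the same 12 h at 20% O2 (normoxia 12 h) served to ask where the change in hypoxia differed from the change in normoxia. No library was kept at 1% O2 without the medium change, so that in the step from 0 h to 12 h in hypoxia the time, the medium and the oxygen level changed together and cannot be told apart. Whether the libraries of a group stem from different birds is not stated in the labels, and the p-values therefore cover the spread among these samples alone, some or all of which may be technical.

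Satellite cells are the stem cells of skeletal muscle. After serum and growth factors are withdrawn they leave the cell cycle and fuse into myotubes under the control of the myogenic regulatory factors MYF5, MYOD1, MYOG and MYF6, and then make the proteins of the sarcomere. Myostatin and Notch signalling are known to hold this programme back, and low oxygen acts in many cells through hypoxia-inducible factors, which raise genes of glycolysis and of blood vessel growth.

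The total count ran from 232043 to 1252578 in the hypoxia 12 h libraries and from 311436 to 1268843 in the normoxia 0 h libraries. Levels are CPM, counts scaled to a common library size with TMM factors, given as mean ± SD over libraries. Since each amplicon has its own primer yield, CPM were compared between libraries and not between genes. Sums over marker genes, given below, are weighted by primer yield and can be compared between libraries alone. Libraries of the series differ in a score of 6 genes (the mean log2 CPM of MC5R, SSTR2, HRH2, THRSP, FBP2 and IRS1), which left a gap between 7.01 and 7.65. Above it lay 1 of 5 normoxia 0 h libraries (replicate 1), 1 of 6 hypoxia 12 h libraries (replicate 1) and 4 of 6 normoxia 12 h libraries (replicates 1, 2, 3 and 6). In normoxia 0 h replicate 1 a technical replicate also had reads for all 590 transcripts, where no other column had more than 516. THRSP, a gene of the score, was itself called higher at 12 h in normoxia than at 0 h. Whether the score follows the condition was not tested. The satellite cell marker PAX7 stood at 9015 ± 591 CPM at 0 h and 8889.7 ± 1649 CPM after 12 h in hypoxia. MYOD1 stood at 4236 ± 429 and 4149.8 ± 346 CPM. Both markers were thus detected in both groups. Since levels cannot be compared between genes, they do not give the share of satellite cells.

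Over the 12 h in hypoxia 123 of 453 tested genes changed (27.2%, edgeR quasi-likelihood test, Benjamini-Hochberg adjusted p under 0.05). Of these 55 rose (12.1%) and 68 fell (15.0%), and 158 genes (34.9%) had an unadjusted p under 0.05. All 6 hypoxia libraries deviated from the 0 h mean in the direction of the change for 119 of the 123 genes. The 123 genes were picked by a test on these same libraries, so this count adds nothing to that test. The libraries of the groups did not overlap in 92 of the 453 genes (20.3%), and 86 of these (19.0% of all) were among the 123. Without the libraries above the gap 95 genes were called, 48 higher and 47 lower, of which 89 were among the 123. Scaling to 6 reference genes gave 87 calls, 48 higher and 39 lower, a share of higher calls of 55.2% against 44.7%. The same 12 h in normoxia gave 82 calls (18.1%), 49 higher (10.8%) and 33 lower (7.28%), with 124 (27.4%) at an unadjusted p under 0.05. With reference genes these were 62, 46 higher and 16 lower.

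**Figure D1:**
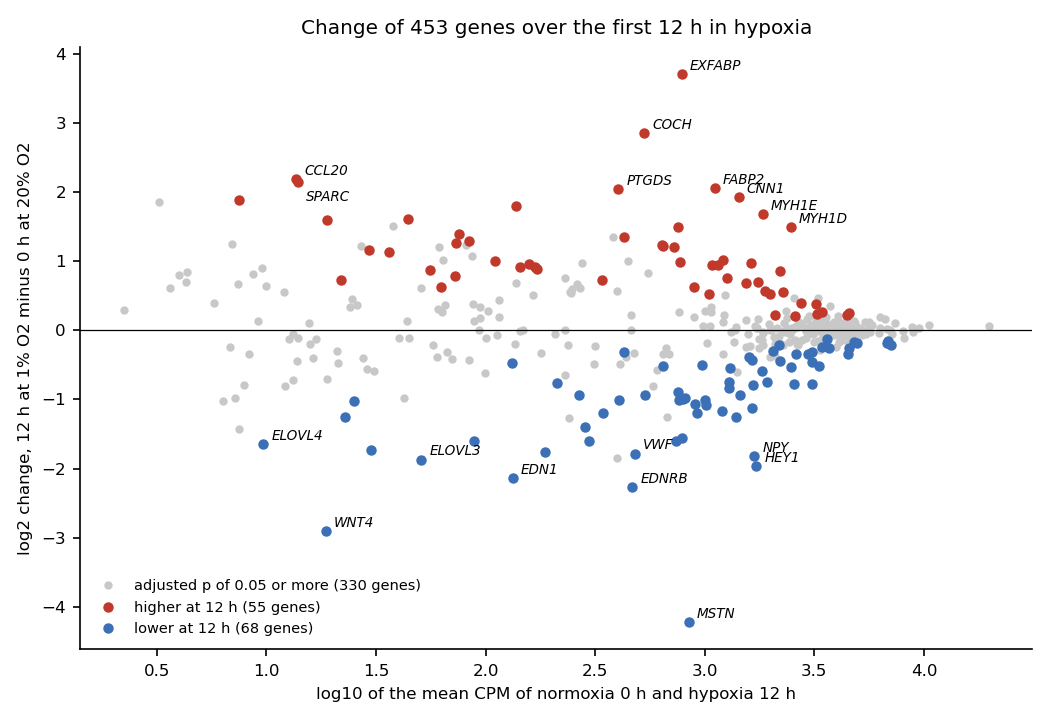
Each point is 1 of 453 genes, with the log10 of its mean CPM across the normoxia 0 h and hypoxia 12 h means on the x axis and its log2 change on the y axis. Coloured points passed the test (55 higher, 68 lower), and EXFABP and MSTN lie furthest from 0.

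EXFABP, a lipocalin of birds that is secreted and binds fatty acids, had the largest rise among the called genes. Its 5 libraries at 0 h stood at 140.4, 142, 96.3, 87.6 and 98.3 CPM, and the 6 libraries after 12 h in hypoxia ran from 1216 to 1824 CPM (median 1439). No library at 12 h in hypoxia came near the 0 h range. The mean went from 113 ± 26.1 to 1458 ± 215 CPM, 13.1-fold (log2 3.71, SE 0.18, adjusted p = 1.09e-22). The gene lies in galGal6 on chromosome 17, 865358 to 868425, 7 exons, minus strand, and PTGDS, another lipocalin, which makes prostaglandin D2, lies beside it (chromosome 17, 872551 to 874786, 7 exons, minus strand).

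Cochlin, a matrix protein encoded by COCH (chromosome 5, 34450679 to 34467653, 11 exons, plus strand), stood at 139, 174, 109, 71.7 and 149 CPM at 0 h and at 654 to 1199 CPM (median 957) after 12 h in hypoxia. The groups were again fully apart, with a mean of 128 ± 39.4 against 928 ± 229 CPM (log2 2.86, SE 0.30, adjusted p = 3.59e-11). PTGDS rose from 159 ± 41.8 to 648 ± 147 CPM (log2 2.05, SE 0.18), and its lowest hypoxia library, at 463 CPM, was above the highest at 0 h, at 213 CPM. FABP2, a fatty acid-binding protein known from the intestine, rose from 428 ± 60.5 to 1791 ± 173 CPM (log2 2.06, SE 0.14). CNN1, the actin-binding calponin of smooth muscle, rose from 599 ± 176 to 2255 ± 253 CPM (log2 1.93, SE 0.15). Of the 12 largest rises these 5 and CAPN3 and MYH1E, described with the muscle genes, rest on more than 200 CPM at 12 h.

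The other 5 of the 12 largest rises were low in both groups. The chemokine CCL20 (log2 2.19, SE 0.55) rested on 22 reads in all 0 h libraries and 104 in all hypoxia 12 h libraries, the matrix protein SPARC (2.15, SE 0.45) on 21 and 94, and the fibril-associated collagen COL12A1 (1.88, SE 0.63) on 12 and 46. PLIN1, which coats lipid droplets (1.60, SE 0.52), rested on 44 and 131 reads. ENSGALG00000041298, to which the table gives no symbol, went from 21.3 ± 9.34 to 66.9 ± 22.3 CPM (1.61, SE 0.36). The call of COL12A1 ended without normoxia 0 h replicate 5 (adjusted p up to 0.0777), and that of PLIN1 without normoxia 0 h replicate 1 (adjusted p up to 0.068). For PLIN1 the technical replicates alone gave log2 2.31 and 0.54, the latter with an adjusted p of 0.55. From technical replicate 1 alone COL12A1 was not called (log2 1.42, adjusted p = 0.383).

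MSTN, listed under its older name GDF8, encodes the muscle growth inhibitor myostatin (chromosome 7, 252348 to 257840, 3 exons, plus strand) and had the largest fall. Its 0 h libraries stood at 1671, 1776, 1495, 1412 and 1665 CPM. After 12 h in hypoxia the 6 libraries ran from 50.8 to 127 CPM (median 87.5), so the highest of them was far under the lowest at 0 h. The mean went from 1604 ± 147 to 86.9 ± 26.9 CPM, 18.6-fold lower (log2 -4.22, SE 0.32, adjusted p = 1.35e-15).

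WNT4, a secreted Wnt ligand, stood at 45.2, 45.1, 26.3, 25.2 and 25.2 CPM at 0 h and at 0 to 6.49 CPM (median 4.70) after 12 h in hypoxia (log2 -2.91, SE 0.52), on 143 reads in the 0 h libraries together and 20 in the hypoxia libraries. The endothelin receptor EDNRB (chromosome 1, 155290926 to 155305744, 7 exons, plus strand) stood at 841, 841, 715, 630.4 and 849 CPM at 0 h and at 124 to 219.8 CPM (median 148) at 12 h, with no overlap (log2 -2.27, SE 0.25, adjusted p = 1.07e-10). HEY1 (chromosome 2, 120664931 to 120667575, 5 exons, minus strand), a repressor switched on by Notch that is known to act against myogenic factors, stood at 2743, 3019, 2633, 2593 and 2661 CPM at 0 h and at 549.6 to 1009 CPM (median 629) at 12 h. All 6 hypoxia libraries of HEY1 were under 1010 CPM and all 5 at 0 h above 2590 CPM (log2 -1.97, SE 0.22, adjusted p = 1.73e-10). NPY, the peptide neuropeptide Y, stood at 2893, 2626, 2397, 2576 and 2644 CPM at 0 h and at 523 to 1002 CPM (median 730.0) at 12 h (log2 -1.82, SE 0.20, adjusted p = 2.35e-10).

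Further large falls were in the vasoconstrictor endothelin EDN1 (log2 -2.14, SE 0.40), the clotting protein VWF (-1.78, SE 0.29), the glutamate transporter SLC1A3 (-1.73, SE 0.33), the gene ENSGALG00000005257 (-1.76, SE 0.36) and the fatty acid elongases ELOVL3, ELOVL4 and ELOVL1, described with the lipid genes. None of EDN1, VWF, SLC1A3 and ENSGALG00000005257 overlapped between the groups. SLC1A3 went from 46.7 ± 13.3 to 13.2 ± 5.21 CPM and ENSGALG00000005257 from 288 ± 59.7 to 85.4 ± 17.3 CPM.

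**Figure D2:**
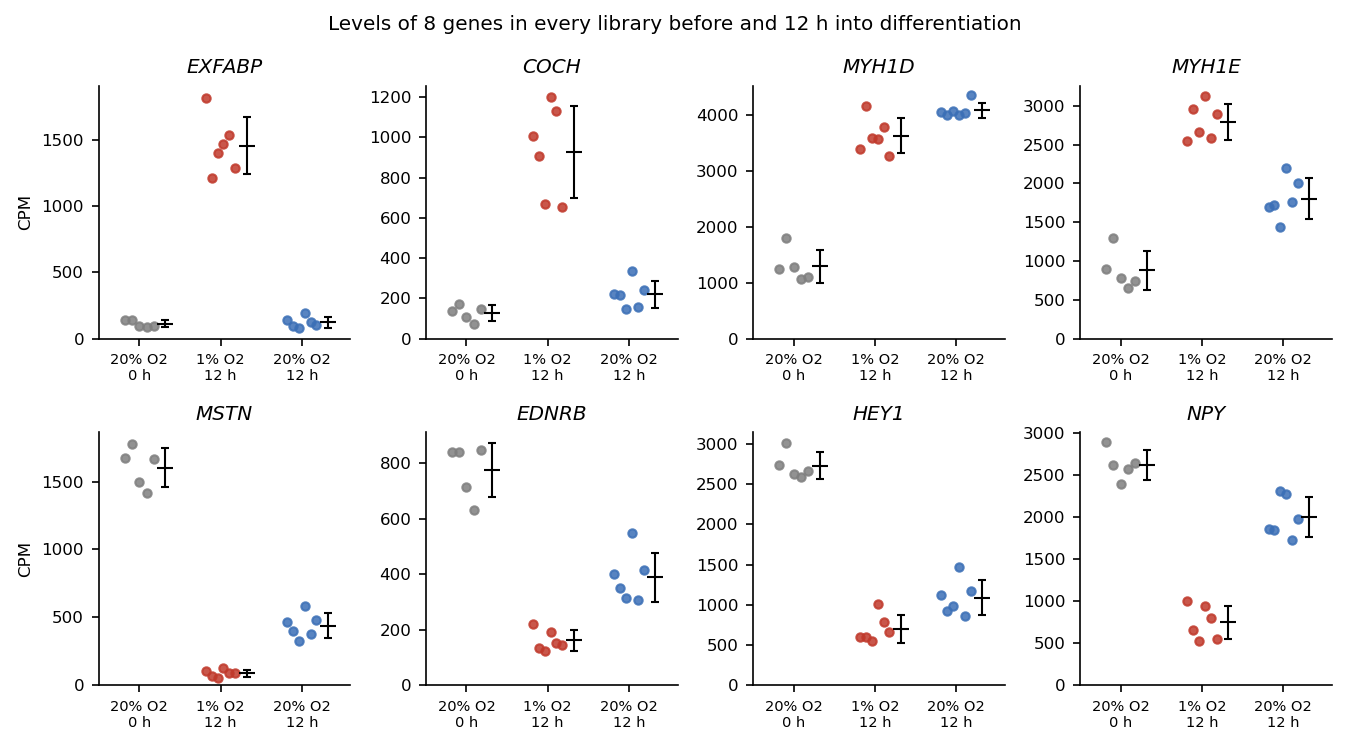
Points are CPM of single libraries (5 at 0 h and 6 in each 12 h group) and the bars beside them mean and SD. EXFABP, COCH, MYH1D and MYH1E are higher at 12 h in hypoxia than in every 0 h library, and MSTN, EDNRB, HEY1 and NPY are lower than in every 0 h library.

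Of 14 contractile and structural genes 7 rose (50%, against 12.1% of all genes), 1 fell (7.14%, against 15.0%) and 6 did not pass. The median log2 change was 0.82, against 0.02 over all genes. This and most other lists were chosen with earlier results of these data known. Their shares are therefore descriptive, and the contrast with all genes may be partly built in. MYH1D, a fast myosin heavy chain (chromosome 18, 376311 to 398842, 39 exons, minus strand), stood at 1238, 1801, 1272, 1072 and 1101 CPM at 0 h and at 3266 to 4166 CPM (median 3583) at 12 h in hypoxia. The groups were apart (log2 1.50, SE 0.08, adjusted p = 1.68e-22). MYH1E (chromosome 18, 564255 to 586932, 38 exons, minus strand) stood at 902, 1302, 784, 657 and 747 CPM and at 2554 to 3132 CPM (median 2776), again without overlap (log2 1.68, SE 0.13, adjusted p = 1.16e-15). Fast myosin genes of the chicken are nearly identical, and read assignment between them is not described in the sources used here. Which gene gave rise to a given MYH1 value is therefore uncertain.

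The muscle calpain CAPN3 rose from 62.0 ± 33.9 to 212 ± 71.6 CPM (log2 1.80, SE 0.34) and the Z-disc protein LDB3 from 805 ± 172 to 1625 ± 368 CPM (log2 1.02, SE 0.13). MYLK, which phosphorylates myosin light chains and was named after its values were seen, went from 49.4 ± 24.4 to 119 ± 32.4 CPM (log2 1.30, SE 0.33). The calcium buffer PVALB of fast fibres went from 54.2 ± 17.5 to 91.6 ± 22.5 CPM (log2 0.79, adjusted p = 0.0175), a call that ended without normoxia 0 h replicate 4 or hypoxia 12 h replicate 1 (adjusted p up to 0.0565). The cardiac actin ACTC1 was the other member that rose. MYH1B fell by 0.47 on the log2 scale (adjusted p = 0.0419), and its call ended without normoxia 0 h replicate 1, 2 or 3 or hypoxia 12 h replicate 1, 2, 3 or 6 (adjusted p up to 0.171). With the libraries above the gap left out 6 of the 14 rose and 0 fell, against 48 and 47 of all 453 genes.

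Of 7 tested genes of the MYOD and MEF2 families 0 were called, against 27.2% of all genes. Of the 7, 0 had an unadjusted p under 0.05 (34.9% of all genes), and DESeq2 called 0 (126 of all 453 genes). With so few genes, 0 calls do not show that the families were unchanged. From technical replicate 1 alone MEF2C was called higher (log2 0.89, adjusted p = 0.0359) and from technical replicate 2 alone MYF6 lower (-2.42, adjusted p = 0.0282). MYOD1 stood at 3651 to 4650.4 CPM at 0 h and 3799 to 4688 CPM (median 4016) at 12 h (log2 -0.03, SE 0.10, adjusted p = 0.865). MYOG, which drives terminal differentiation, stood at 4405 to 4873 CPM and 4377 to 5581 CPM (median 5044) (log2 0.11, SE 0.10), and MYF5, which marks committed precursors, at 6016 to 8646 CPM and 5278 to 8678 CPM (median 6969) (log2 -0.05, SE 0.21). The late factor MYF6 varied widely, from 105 to 596 CPM at 0 h and from 41.1 to 254 CPM (median 123) at 12 h (log2 -1.27, SE 0.67, adjusted p = 0.168). The cofactors MEF2A (log2 0.55, SE 0.29) and MEF2C (0.54, SE 0.28), named after their values were seen, did not pass either.

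Among 5 genes of satellite cell identity 1 rose (20%, against 12.1% of all genes) and 1 fell (20%, against 15.0%). ITGA7, the laminin receptor of muscle, rose, from a mean of 107 ± 29.7 to 207 ± 44.6 CPM (log2 0.96, SE 0.27, adjusted p = 0.00468), and the adhesion protein NCAM1 fell from 1548 ± 119 to 1066 ± 103 CPM (log2 -0.54, SE 0.09, adjusted p = 3.39e-06). PAX7 (log2 -0.02, SE 0.15) and PAX3 (-0.16, SE 0.24), the transcription factors of the stem cell state, did not pass. Of 4 genes that hold back myogenic factors MSTN and HEY1 fell (50%, against 15.0% of all genes) and 1 rose (25%, against 12.1%). It was BHLHE40, a repressor induced by low oxygen, which rose from a mean of 2393 ± 155 to 2776 ± 119.7 CPM (log2 0.21, SE 0.07, adjusted p = 0.0189). The call of BHLHE40 ended without normoxia 0 h replicate 2 or 5 (adjusted p up to 0.0643), with reference genes and without the libraries above the gap (largest adjusted p of these 0.0965).

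Among 5 proliferation genes 2 fell (40%, against 15.0% of all genes) and 0 rose. DESeq2, both other scalings and the fit without the libraries above the gap each called 1 lower, against 39 to 71 of all 453 genes. E2F1, a transcription factor of the entry into DNA synthesis, stood at 2221, 2810.0, 1949.7, 1646 and 2641 CPM at 0 h and at 789 to 1439 CPM (median 963) at 12 h in hypoxia. No library overlapped (log2 -1.12, SE 0.29, adjusted p = 0.00227). PCNA, the replication clamp, fell by 0.16 (SE 0.06, adjusted p = 0.0486), a call that DESeq2 did not make and that ended without normoxia 0 h replicate 2, 3 or 4 or hypoxia 12 h replicate 1, 2, 3, 5 or 6 (adjusted p up to 0.145). Cyclin D1, CCND1 (log2 -0.04, SE 0.05), and the nucleotide reductase subunit RRM2 (-0.07, SE 0.05) did not pass. The cell cycle inhibitor CDKN1A stood at 2301 ± 267 and 1797 ± 323 CPM and did not pass in edgeR (log2 -0.36, SE 0.14, adjusted p = 0.0552), while DESeq2 called it.

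In the list of 6 HIF pathway genes BHLHE40 rose (16.7%, against 12.1% of all genes) and 5 did not pass. VEGFA, the angiogenic growth factor that HIF is known to raise, stood at 4535, 4312, 4305, 4295 and 4535 CPM at 0 h and at 4225 to 4708 CPM (median 4331) at 12 h in hypoxia (log2 0.00, SE 0.06). These ranges overlapped. HIF1A, the oxygen-regulated subunit, which is mainly controlled as a protein, had a log2 change of -0.17 (SE 0.07, adjusted p = 0.0922). It was called lower with the compared groups alone in the fit (-0.15, adjusted p = 0.0387) and with a replicate block (-0.18, adjusted p = 0.0227). PDK1, which keeps pyruvate from being oxidised in the mitochondria, was at 0.07 (SE 0.07), and the glucose transporter SLC2A1 at 0.02 (SE 0.11).

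Of 13 glycolysis and lactate genes 1 rose (7.69%, under the 12.1% of all genes) and 12 did not pass. It was the enolase ENO1, at 30.2, 25.8, 49.3, 63.7 and 25.2 CPM at 0 h and at 58.6 to 94.7 CPM (median 69.4) at 12 h (log2 0.88, SE 0.30, adjusted p = 0.0242). The ranges of ENO1 overlapped and its call ended without normoxia 0 h replicate 1, 2 or 5 or hypoxia 12 h replicate 6 (adjusted p up to 0.0849). Hexokinase HK2 stood at 970.4 ± 276 and 1163 ± 216 CPM (log2 0.26, SE 0.27) and did not pass.

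Among 15 genes of mitochondria and oxidative metabolism 1 rose (6.67%, against 12.1% of all genes) and 4 fell (26.7%, against 15.0%). PPARGC1A, the coactivator of mitochondrial biogenesis, stood at 456, 489.8, 419, 311 and 513 CPM at 0 h and at 653 to 1161 CPM (median 1099) at 12 h in hypoxia, without overlap (log2 1.21, SE 0.16, adjusted p = 4.39e-08). The falls were small: MFN1, which fuses mitochondria (log2 -0.43), the fatty acid receptor PPARA (-0.39), the cytochrome oxidase subunit COX4I1 (-0.31) and CPT1A, which carries fatty acids to mitochondria and was named after its values were seen (-0.21). The call of MFN1 ended without normoxia 0 h replicate 1, 2, 3 or 5 or hypoxia 12 h replicate 1, 2, 3, 5 or 6 (adjusted p up to 0.105), that of PPARA without normoxia 0 h replicate 2 or 5 or hypoxia 12 h replicate 1 (adjusted p up to 0.0591) and that of COX4I1 without normoxia 0 h replicate 1 or hypoxia 12 h replicate 6 (adjusted p up to 0.0722). Of the 15 genes 1 fell with the libraries above the gap left out, against 47 of all 453 genes. MDH2, the malate dehydrogenase of the citric acid cycle, is in none of the lists and was named after its values were seen. It fell from 1019.9 ± 149 to 506 ± 74.1 CPM (log2 -1.01, SE 0.16, adjusted p = 1.67e-06).

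The mitochondrial carriers of the SLC25 family, a list made after the panel names were seen, had 2 of 24 members higher (8.33%) and 3 lower (12.5%), both under the shares of all genes (12.1% and 15.0%). SLC25A13, the aspartate and glutamate carrier, fell from 1666 ± 231 to 744 ± 178 CPM (log2 -1.16, SE 0.21, adjusted p = 1.92e-05), and SLC25A32, which brings folate into mitochondria, from 1613 ± 165 to 959.7 ± 152 CPM (log2 -0.75, SE 0.17). From technical replicate 1 alone SLC25A32 was not called (log2 -0.59, adjusted p = 0.0515). The carrier SLC25A30 rose by 0.70 (SE 0.12) and SLC25A43 by 0.25 (SE 0.08). The call of SLC25A43 ended without normoxia 0 h replicate 1 (adjusted p up to 0.0538). SLC25A26, which carries S-adenosylmethionine, fell by 0.30 (adjusted p = 0.0486), and its call ended without normoxia 0 h replicate 1, 2, 3, 4 or 5 or hypoxia 12 h replicate 1, 2, 3, 4 or 6 (adjusted p up to 0.138).

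In the TGF-beta and BMP list 2 of 13 genes rose (15.4%, against 12.1% of all genes) and 3 fell (23.1%, against 15.0%). GREM1, a secreted BMP antagonist, stood at 2111, 1434, 1335, 1367 and 1586 CPM at 0 h and at 2701 to 3148 CPM (median 2807) at 12 h in hypoxia, without overlap (log2 0.86, SE 0.11, adjusted p = 5.07e-09). The coreceptor TGFBR3 rose by 0.40 (SE 0.09). Besides MSTN the protease TLL1, of the tolloid family that frees myostatin and BMPs from their inhibitors, fell from 1655 ± 314 to 927 ± 179 CPM (log2 -0.84, SE 0.20, adjusted p = 0.00113). The ligand TGFB1 fell by 0.94 (SE 0.35, adjusted p = 0.0357), and its call ended without normoxia 0 h replicate 1, 2 or 5 or hypoxia 12 h replicate 1, 2, 3, 4 or 6 (adjusted p up to 0.101). FST, follistatin, which binds and blocks myostatin, stood at 5916 to 6886 CPM at 0 h and 5783 to 6766 CPM (median 6142) at 12 h and did not pass (log2 -0.04, SE 0.08).

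Of 3 Notch genes HEY1 fell (33.3%, against 15.0% of all genes) and 2 did not pass, among them the receptor NOTCH1 (log2 -0.80, SE 0.36, adjusted p = 0.0981). NOTCH1 was called lower with the compared groups alone in the fit (adjusted p = 0.0198) and from technical replicate 2 alone (-1.25, adjusted p = 0.0392), and stood at -0.40 from technical replicate 1 alone. In the Wnt list WNT4 and SFRP1, a secreted Wnt antagonist, were the 2 of 9 that fell (22.2%, against 15.0% of all genes), and 0 rose. SFRP1 went from 1082 ± 329 to 548 ± 112 CPM (log2 -0.98, SE 0.28, adjusted p = 0.00673). From technical replicate 1 alone SFRP1 was not called (log2 -0.81, adjusted p = 0.0515).

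Among 8 FGF, PDGF and other growth factor receptor genes 2 fell (25%, against 15.0% of all genes) and 1 rose (12.5%, against 12.1%). FGFR2 fell from 3241 ± 302 to 1887 ± 245 CPM (log2 -0.78, SE 0.14, adjusted p = 1.71e-05), without overlap. FGFR4, a receptor of muscle precursors, fell by 0.34 (SE 0.12, adjusted p = 0.0317), a call that ended without normoxia 0 h replicate 1 or 3 or hypoxia 12 h replicate 1 or 6 (adjusted p up to 0.0743). The receptor FGFRL1, which lacks the kinase part, rose by 0.27 (SE 0.08). FGFR3 stood at 1699.8 ± 374 and 1117 ± 229.7 CPM and did not pass in edgeR (log2 -0.61, SE 0.25, adjusted p = 0.0701), while DESeq2 called it lower (adjusted p = 0.0416), as did edgeR with the compared groups alone (0.0159) and without normoxia 0 h replicate 4.

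In the IGF and insulin list 1 of 11 rose (9.09%, against 12.1% of all genes) and 2 fell (18.2%, against 15.0%). IGF1, an insulin-like growth factor that makes muscle grow, fell from 1059.9 ± 322 to 532 ± 119 CPM (log2 -0.99, SE 0.27, adjusted p = 0.0041), though the highest hypoxia library, at 743 CPM, overlapped the lowest at 0 h. IGFBP2, which binds IGFs outside the cell, rose from 1852 ± 348 to 2711 ± 195 CPM (log2 0.55, SE 0.14). The kinase subunit PIK3CA fell by 0.22 (SE 0.08), and its call ended without normoxia 0 h replicate 1 or 2 or hypoxia 12 h replicate 1 (adjusted p up to 0.0558). IGF2 did not pass (770.5 ± 278 and 608 ± 202 CPM, log2 -0.35, SE 0.27).

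In the extracellular matrix list more genes rose than fell. Of 22 tested genes 7 rose (31.8%, against 12.1% of all genes), 2 fell (9.09%, under the 15.0% of all genes) and 13 did not pass. The median was 0.09. The members were chosen with earlier results of these data known, so the higher share may be partly built in. After COCH, SPARC and COL12A1 the others were DPT, dermatopontin, which was named after its values were seen and went from 386 ± 89.4 to 899.7 ± 183 CPM (log2 1.23, SE 0.17), the secreted SPON2 and SPON1, and the fibrillar collagen COL3A1. SPON2 rested on 67 and 119 reads (log2 0.72, adjusted p = 0.021), and its call ended without normoxia 0 h replicate 1 or 5 or hypoxia 12 h replicate 1 or 4 (adjusted p up to 0.105). From technical replicate 1 alone SPON2 had a log2 change of 1.37, and from technical replicate 2 alone 0.28 (adjusted p = 0.6). The heparan sulphate proteoglycan GPC3 stood at 361, 399.6, 427, 430.0 and 443 CPM at 0 h and at 122 to 182 CPM (median 155) at 12 h in hypoxia. All its hypoxia libraries were under 200 CPM (log2 -1.41, SE 0.22, adjusted p = 1.87e-06). MMP9, which degrades matrix, fell from 1338 ± 258 to 664 ± 125 CPM (log2 -1.01, SE 0.27). Of the 22 genes 5 rose and 2 fell with the libraries above the gap left out, against 48 and 47 of all 453 genes.

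Of 38 genes of lipid uptake, synthesis and storage 9 rose (23.7%, against 12.1% of all genes), 5 fell (13.2%, under the 15.0% of all genes) and 24 did not pass. Besides FABP2 and PLIN1 the apolipoprotein APOA1 rose, from 498, 554, 296, 265 and 367 CPM in the 0 h libraries to 933 to 1206 CPM (median 1111) at 12 h in hypoxia (log2 1.50, SE 0.12, adjusted p = 1.32e-14). FABP1, ACACA, CD36, LPIN1, PNPLA2 and PPARG were the other members that rose. PPARG, the master regulator of fat cells, changed by 0.23 (SE 0.08, adjusted p = 0.0241), and its call ended without normoxia 0 h replicate 1 or 4 or hypoxia 12 h replicate 3 (adjusted p up to 0.0833).

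The 5 that fell were 4 fatty acid elongases and PLIN2, a coat protein of lipid droplets. ELOVL1, which makes very long saturated chains, stood at 421, 673, 365, 296 and 474 CPM at 0 h and at 85.6 to 262 CPM (median 127) at 12 h, without overlap (log2 -1.61, SE 0.33, adjusted p = 0.000124). ELOVL3 went from 79.5 ± 29.3 to 21.9 ± 8.96 CPM (log2 -1.87, SE 0.48), and ELOVL7 was the fourth elongase. ELOVL4 rested on 72 and 23 reads (log2 -1.65, SE 0.51), and its call ended without normoxia 0 h replicate 1 (adjusted p up to 0.0678). Technical replicates alone gave ELOVL4 log2 changes of -1.24 (adjusted p = 0.255) and -2.25. Of 5 adipocyte markers PLIN1 and PPARG rose (40%, against 12.1% of all genes). The summed level of 6 such markers ran from 14011 to 16193 CPM at 0 h and from 14785 to 17351 CPM at 12 h. CFD, with 2 reads in all 0 h libraries and 0 at 12 h in hypoxia, had too few to be tested. The part of adipocyte-type cells in the lipid genes was not tested.

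In the list of 10 vasoactive and endothelial-type genes 4 fell (40%, against 15.0% of all genes), namely EDNRB, EDN1, NPY and VWF, and 1 rose (10%, against 12.1%). VWF stood at 724, 967, 648, 534 and 841 CPM at 0 h and at 147 to 299.7 CPM (median 205) at 12 h in hypoxia. EDN1 stood at 274, 264, 146, 138 and 258 CPM and at 28.1 to 80.2 CPM (median 51.2). The angiotensin-converting enzyme ACE rose, from a mean of 242 ± 47.4 to 614 ± 107 CPM (log2 1.35, SE 0.30, adjusted p = 0.000469). The summed level of the endothelial markers VWF, CDH5, PECAM1 and ENG ran from 687 to 1469 CPM at 0 h (median 1052) and from 320.2 to 544 CPM at 12 h (median 395). Much of this sum is VWF, with a mean of 743 CPM at 0 h and 216 CPM at 12 h. CDH5 and ENG did not pass, and PECAM1 had too few reads to be tested (9 and 8). The part of endothelial-type cells was not tested. Fewer cells of a type and less RNA per cell cannot be told apart in these samples. Smooth muscle markers summed to 9522 to 10704 CPM at 0 h and 10514 to 11400 CPM at 12 h. CNN1 was the 1 of 3 that rose (33.3%, against 12.1% of all genes). Immune markers summed to 618 to 957 CPM and to 461 to 806 CPM, with 0 of 2 tested called by edgeR, 0 at an unadjusted p under 0.05 and 0 by DESeq2. Over all genes edgeR called 27.2% and 34.9% had an unadjusted p under 0.05, so 0 of 2 says little. Not tested for want of reads were PTPRC (45 reads at 0 h and 4 at 12 h in hypoxia) and CD86 (15 and 21). Whether PTPRC fell was therefore not tested.

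Of 15 cytokine and chemokine genes 6 rose (40%, against 12.1% of all genes) and 2 fell (13.3%, against 15.0%). The list also holds the lipocalins EXFABP and PTGDS, which are among the 6. It was chosen with earlier results of these data known, so the higher share may be partly built in. IL6, a cytokine that muscle cells themselves make, stood at 1259, 1083, 959, 869 and 1318 CPM at 0 h and at 1778 to 2646 CPM (median 2081) at 12 h in hypoxia. The groups were apart (log2 0.97, SE 0.15, adjusted p = 1.67e-06). CCL20, LITAF and IL18 were the other members that rose. The tumour necrosis factor receptor TNFRSF1B fell from 33.2 ± 6.38 to 16.9 ± 6.27 CPM (log2 -1.02, SE 0.33, adjusted p = 0.0164), on 158 and 77 reads, and its call ended without normoxia 0 h replicate 5 or hypoxia 12 h replicate 6 (adjusted p up to 0.0539). STAT3, the transcription factor downstream of IL6, fell by 0.34 (SE 0.11), a call that ended without normoxia 0 h replicate 5 (adjusted p up to 0.0569). The chemokine CCL5 did not pass (log2 -1.43, SE 0.57, adjusted p = 0.0555), on 49 and 17 reads.

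Immediate early and MAPK feedback genes had 3 of 9 members higher (33.3%, against 12.1% of all genes) and 0 lower. The G protein regulator RGS4 rose from 42.1 ± 12.7 to 109.8 ± 26.5 CPM (log2 1.39, SE 0.33), the transcription factor EGR3 from 741 ± 94.2 to 1428 ± 203 CPM (log2 0.95, SE 0.16, adjusted p = 7.73e-06) and the small GTPase RASD1 from 939.6 ± 229 to 1587 ± 375 CPM (log2 0.76, SE 0.20). All 3 were also called without the libraries above the gap.

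Antioxidant genes had 3 of 8 members lower (37.5%, against 15.0%) and 0 higher. TXNRD1, the cytosolic thioredoxin reductase, stood at 3904, 4321, 3681, 3854 and 3757 CPM at 0 h and at 2025 to 2866 CPM (median 2173) at 12 h in hypoxia, without overlap (log2 -0.78, SE 0.14, adjusted p = 1.07e-05). The metallothionein MT3 fell by 0.52 (SE 0.14) and catalase, CAT, by 0.18 (SE 0.05). With reference genes 1 of the 8 was called lower, against 39 of all 453 genes. Among 5 apoptosis genes 1 rose (20%, against 12.1% of all genes) and 1 fell (20%, against 15.0%). The death receptor FAS rose, from a mean of 520.0 ± 53.4 to 1029.9 ± 55.2 CPM (log2 0.99, SE 0.10, adjusted p = 2.18e-11), and TNFRSF1B fell. BECN1, which starts autophagosome formation, was the 1 of 4 autophagy genes that fell (25%, against 15.0% of all genes). It went from 2190.3 ± 147 to 1467 ± 282 CPM (log2 -0.58, SE 0.16). Heat shock and ER stress genes had 0 of 5 called by edgeR, 0 at an unadjusted p under 0.05 and 0 by DESeq2, and the 6 reference genes had 0 by each of these counts too. Over all 453 genes edgeR called 27.2%, 34.9% had an unadjusted p under 0.05 and DESeq2 called 126. At such shares lists this small can hold 0 calls, which do not show that their genes were unchanged.

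**Figure D3:**
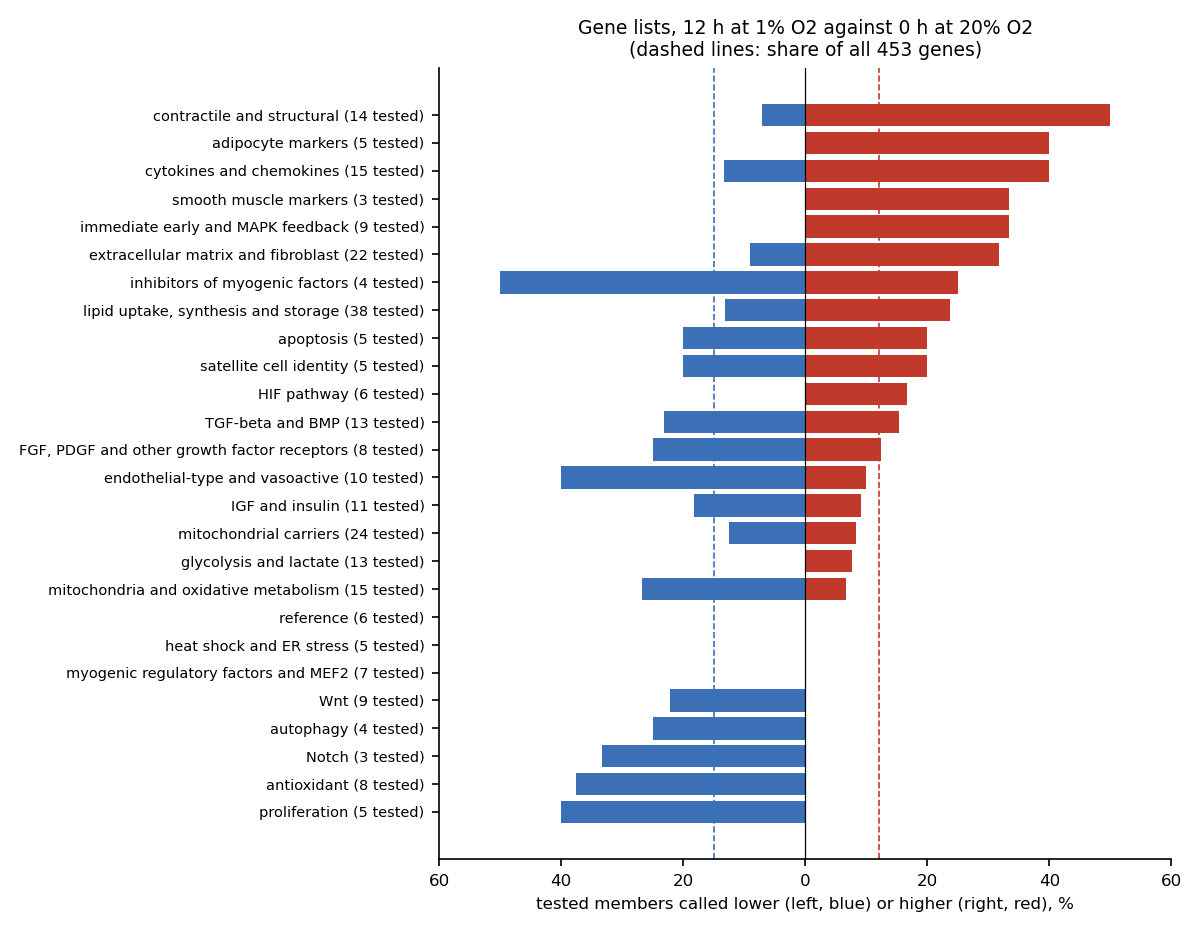
Bars give the share of the tested members of each list that rose (right) or fell (left), in percent, and dashed lines the shares of all 453 genes, 12.1% and 15.0%. Contractile genes reach 50% higher, and the myogenic factors, reference and stress lists have 0 in both directions. Most lists were chosen with earlier results of these data known.

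The calls of some named genes depended on libraries or scaling. Leaving out the libraries above the gap ended 17 of them, with adjusted p from 0.0582 to 0.394. In ELOVL4 (log2 -1.65 with all libraries and -1.08 without) and SPON2 (0.72 and 0.39) the change also became smaller. PLIN1 went from 1.60 to 1.36. In BHLHE40, ENO1, PVALB, TGFB1, FGFR4, MYH1B, MFN1, PCNA, PPARA, PIK3CA, CAT, STAT3, SLC25A43 and SLC25A26 the log2 change without those libraries was between 0.88 and 1.15 times its value with them, so the call was lost at nearly the same size. With reference genes 18 calls ended, all at 0.88 to 1.14 times the value, and IGFBP2, FGFRL1, BECN1, MT3, COX4I1 and PPARG (adjusted p from 0.0521 to 0.278) are not among those 17. A single technical replicate ended 18 calls (replicate 1 alone, adjusted p from 0.0507 to 0.383) and 13 (replicate 2 alone, 0.0587 to 0.6). Among these were COX4I1 (0.349), STAT3 (0.317) and TNFRSF1B (0.171) from replicate 1 alone, and PVALB (0.232) from replicate 2 alone.

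The difference between the change in hypoxia and the change in normoxia over the same 12 h was tested as hypoxia 12 h against normoxia 12 h, since both start from the same 0 h libraries. It was called for 81 of 453 genes (17.9%), 34 higher (7.51%) and 47 lower (10.4%) in hypoxia, with 160 (35.3%) at an unadjusted p under 0.05. The libraries did not overlap in 63 genes (13.9%), of which 47 (10.4% of all) were called. Scaling moved this split: reference genes gave 11 higher and 33 lower, and DESeq2 26 higher and 63 lower. The median over all genes was -0.07 with reference genes and 0.04 with TMM, and reports of higher and lower are relative to the latter. Without the libraries above the gap, 4 of which are normoxia 12 h libraries, 25 genes were called, 4 higher and 21 lower.

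EXFABP rose in hypoxia and did not pass in normoxia, where its 12 h libraries ran from 83.2 to 194 CPM (median 114). The log2 change was 3.71 in hypoxia and 0.10 in normoxia (adjusted p = 0.692), a difference of 3.60 (SE 0.17, adjusted p = 1.07e-23). COCH rose in both, by 2.86 in hypoxia and 0.77 in normoxia, the latter with an adjusted p of 0.046 (difference 2.09, SE 0.27, adjusted p = 4.45e-08). CCL20 was at 2.19 and 0.05 (difference 2.15, SE 0.51), MYH1E at 1.68 and 1.05 (difference 0.63, SE 0.12) and IL6 at 0.97 and 0.38 (difference 0.59, SE 0.14). Without the libraries above the gap the differences of EXFABP and COCH were called (adjusted p of COCH 0.00535), and those of CCL20, MYH1E and IL6 were not (adjusted p = 0.0925, 0.0848 and 0.252). The differences were then 2.09, 0.51 and 0.41, so for CCL20 the size hardly moved.

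MSTN fell in both, and further in hypoxia. Its normoxia 12 h libraries ran from 324 to 582 CPM (median 432), all above the hypoxia 12 h libraries, and its log2 change was -4.22 against -1.87 (difference -2.34, SE 0.30, adjusted p = 3.74e-08). EDNRB also fell in both, to 389 ± 89.0 CPM in normoxia and 161 ± 36.6 CPM in hypoxia (difference -1.27, SE 0.23). GPC3 was at -1.41 in hypoxia and -0.49 in normoxia, where it did not pass (difference -0.92, SE 0.22). NPY fell in hypoxia and did not pass in normoxia, where its libraries ran from 1726 to 2315 CPM (median 1923) (difference -1.43, SE 0.19, adjusted p = 1.93e-07). The protease TLL1 was at -0.84 and -0.01 (difference -0.83, SE 0.19), and ELOVL1 at -1.61 and 0.15 (difference -1.76, SE 0.32). All 6 of these differences were called without the libraries above the gap.

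Some genes rose in both, but less in hypoxia. MYLK reached 379.6 ± 71.6 CPM in normoxia against 119 ± 32.4 CPM in hypoxia (log2 change 2.97 and 1.30, difference -1.67, SE 0.31, adjusted p = 6.2e-05). PPARGC1A reached 1802 ± 451 against 1013 ± 194 CPM (2.05 and 1.21, difference -0.83, SE 0.15), and DPT 1360.3 ± 170.1 against 899.7 ± 183 CPM (difference -0.60, SE 0.16). ITGA7 rose by 1.83 in normoxia and 0.96 in hypoxia (difference -0.87, SE 0.25, adjusted p = 0.0111), a call lost without the libraries above the gap (difference then -0.77, adjusted p = 0.282). The thyroid hormone-activating enzyme DIO2, named after its values were seen, rose by 1.63 and 0.92 (difference -0.71, adjusted p = 0.0384), a call that ended without hypoxia 12 h replicate 1, 2, 3 or 4 or normoxia 12 h replicate 1, 4 or 5 (adjusted p up to 0.146).

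TNFRSF1B rose by 1.04 in normoxia (adjusted p = 0.0128) and fell by 1.02 in hypoxia, a difference of -2.06 (SE 0.32, adjusted p = 3.49e-06). ENSGALG00000012061, named after its values were seen, rose from 265 ± 52.9 to 648 ± 73.2 CPM in normoxia and fell to 157 ± 25.7 CPM in hypoxia (difference -2.05, SE 0.19, adjusted p = 4.15e-12). The growth factor IGF2 rose in normoxia to 1414 ± 277 CPM (log2 0.88, adjusted p = 0.0158) and did not pass in hypoxia (difference -1.23, SE 0.26, adjusted p = 0.000527). IL15, a cytokine made by muscle and named after its values were seen, was at 1.63 in normoxia and 0.44 in hypoxia (difference -1.19, SE 0.23). CCL5 was at 1.93 and -1.43 (difference -3.36, SE 0.53), on 209 and 17 reads. MEF2A and MEF2C, which passed in normoxia (both at log2 1.30), differed by -0.75 and -0.76 (adjusted p = 0.0471 and 0.0384). That of MEF2A ended without hypoxia 12 h replicate 1, 2, 3, 5 or 6 or normoxia 12 h replicate 1, 4 or 6 (adjusted p up to 0.152) and that of MEF2C without hypoxia 12 h replicate 1, 2, 3 or 6 or normoxia 12 h replicate 1, 2, 4 or 6 (adjusted p up to 0.0892).

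The changes of the glycolytic genes ENO1 and HK2 also differed. ENO1 was at log2 0.88 in hypoxia and -0.46 in normoxia (difference 1.34, SE 0.29, adjusted p = 0.000752) and HK2 at 0.26 and -0.55 (difference 0.81, SE 0.26, adjusted p = 0.0243). PVALB was at 0.79 and -0.53 (difference 1.32, SE 0.25) and FGFR3 at -0.61 and -1.67 (difference 1.06, SE 0.24). CDKN1A was lower in hypoxia (difference -0.52, SE 0.14, adjusted p = 0.00504). None of these 5 was called without the libraries above the gap (adjusted p from 0.0809 to 0.35), which left 2 normoxia 12 h libraries. The differences were then 1.32 for ENO1, 1.11 for PVALB, -0.51 for CDKN1A, 0.68 for HK2 and 0.66 for FGFR3. The call of HK2 also ended without normoxia 12 h replicate 3 (adjusted p up to 0.0502).

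Many of the largest changes of the 12 h in hypoxia had no called difference from normoxia. FABP2 rose by 2.06 and 2.11 (difference -0.05, SE 0.13), PTGDS by 2.05 and 1.88 (0.16, SE 0.16), CNN1 by 1.93 and 2.18 (-0.25, SE 0.13) and MYH1D by 1.50 and 1.67 (-0.17, SE 0.07, adjusted p = 0.0774). VWF was at -1.78 and -1.83 (0.04, SE 0.28), EDN1 at -2.14 and -1.82 (-0.31, SE 0.38) and WNT4 at -2.91 and -3.18 (0.27, SE 0.59). Other named genes were also called in the same direction in normoxia, without a called difference. Among these GREM1, APOA1, FAS, ACE, EGR3, RGS4, SLC25A30, CAPN3, LDB3, SPARC and IGFBP2 were higher at 12 h, and FGFR2 and MMP9 lower. For E2F1 the difference was -0.70 (SE 0.28, adjusted p = 0.0697). With reference genes as scaling the differences of COL12A1, MYH1E, HEY1, FST, CDKN1A, BHLHE40, HK2, IL6, NCAM1, TGFBR3, BECN1, TXNRD1, RASD1, MEF2A and MEF2C were not called. A difference that missed the threshold is not shown to be absent, least of all where its SE is large, as for WNT4.

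**Figure D4:**
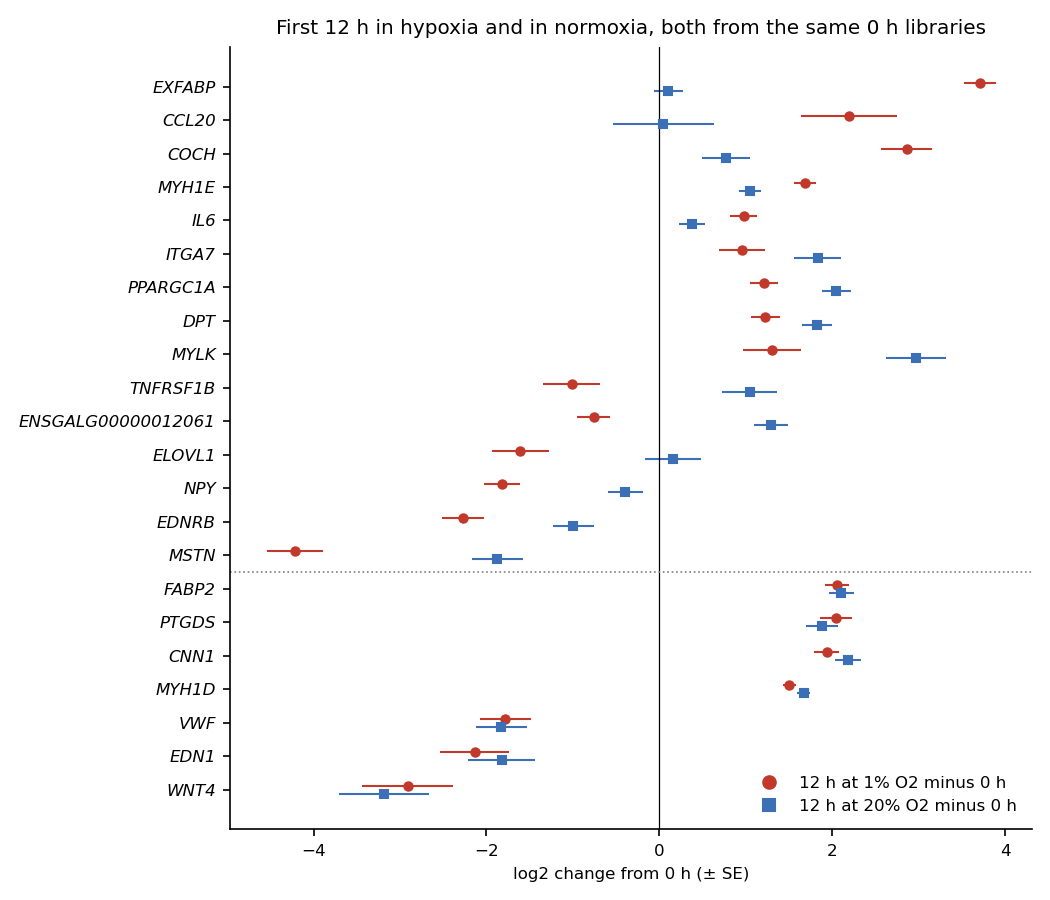
Points are log2 changes from 0 h with SE, in hypoxia (red circles) and normoxia (blue squares), for 15 genes with a called difference above the dotted line and 7 without below it. EXFABP, at 3.71 and 0.10, and MSTN, at -4.22 and -1.87, are far apart, and FABP2, at 2.06 and 2.11, is not.

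Later harvests in hypoxia show what followed these changes, given as levels without a test. EXFABP stood at 2329.5 ± 205, 2605 ± 205 and 3219 ± 169.8 CPM at 24, 36 and 48 h, so its level at 12 h was under its later levels. COCH stood at 1267 ± 459, 1294 ± 536 and 1709.8 ± 357 CPM, with a wide spread. MSTN was at 42.5 ± 27.2, 36.7 ± 22.3 and 27.0 ± 11.3 CPM, and most of its fall had taken place by 12 h. MYH1D was at 4525 ± 228, 4561 ± 412 and 4268 ± 253 CPM and MYH1E at 2949 ± 221, 2694 ± 164 and 3101 ± 251 CPM. WNT4 stayed under 6 CPM on average. PPARGC1A went on from 979.9 ± 247 CPM at 24 h to 2569 ± 365 CPM at 48 h, where normoxia stood at 2517 ± 148 CPM. IL6 stood at 3028 ± 568 CPM at 24 h and 1027 ± 183 CPM at 48 h.

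**Figure D5:**
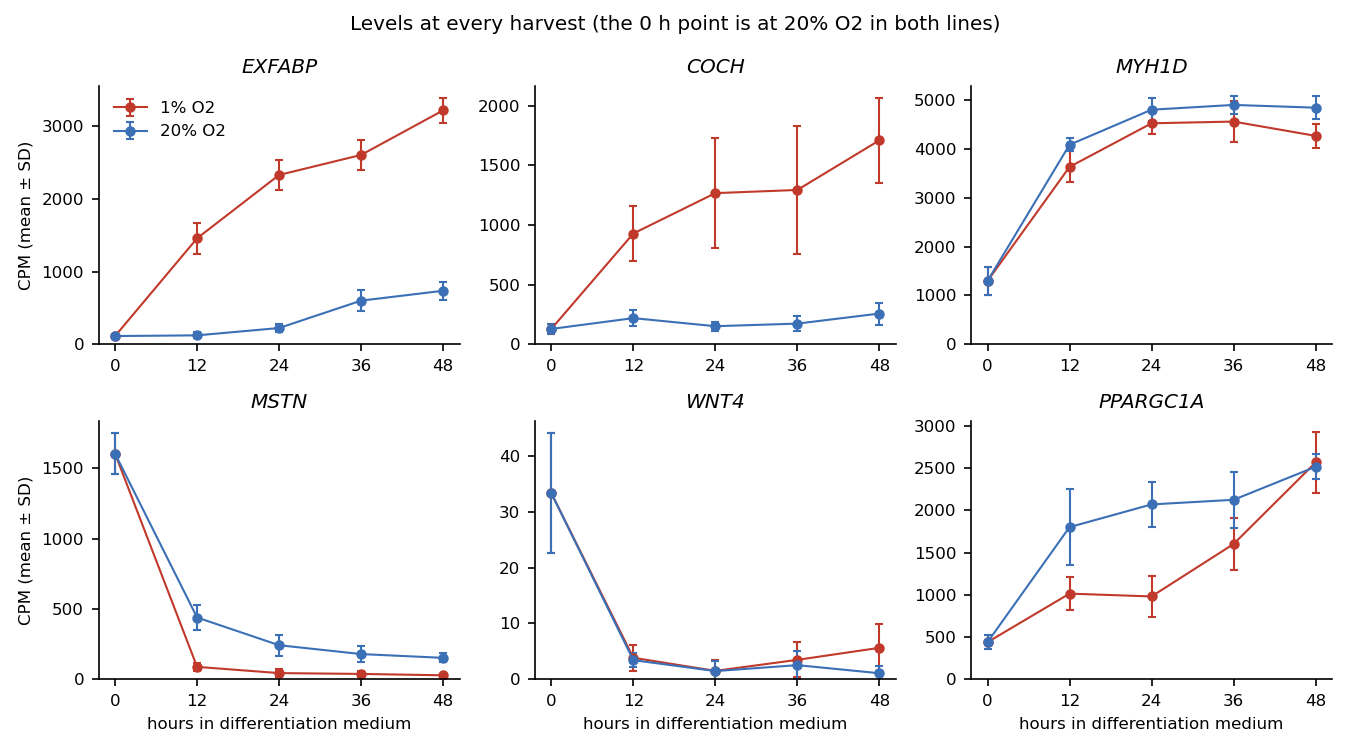
Mean CPM with SD at each harvest in hours, at 1% O2 (red) and 20% O2 (blue), from the same 5 libraries at 0 h and 6 per later point. EXFABP and COCH part between the oxygen levels at 12 h, and MYH1D and MSTN make most of their change by 12 h.

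Of the 569 genes of the panel 116 had too few counts to be tested. Of these 37 had no read in any hypoxia 12 h library and 15 had reads in all 6, and the highest mean at 12 h in hypoxia was 7.61 CPM. Some had more reads at 0 h, such as IL1B (59 reads at 0 h and 10 at 12 h in hypoxia), PENK (50 and 14) and PTPRC (45 and 4). Others had fewer, such as PGAM1 (9 and 21).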

How the data were processed

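The authors deposited 1 table of raw read counts per transcript (590 transcripts, 106 columns), that is 53 biological libraries in 2 technical replicates each. Coordinates come from that table, on galGal6 per the submitters' processing notes. The sources used here give no aligner, counter, molecular identifiers or strand setting. The authors chose the panel and primers, so CPM of different amplicons are not comparable, and PCR duplicates may inflate counts.

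Groups came from the sample labels. Technical replicates were summed, 1160 blank cells in 21 columns (0 of them in the normoxia 0 h and hypoxia 12 h columns) were read as 0, and the 2 transcripts of 21 genes were summed, giving 569 genes. Names were checked against a RefSeq gene table of GRCg7b: 522 were current symbols and 4 older symbols. A few panel genes are not reported here. Totals per library ranged from 171196 to 1448544. No pair of libraries within normoxia 0 h or within hypoxia 12 h agreed within sampling noise (lowest chi-square per degree of freedom 4.69). Pairs with hypoxia 12 h replicate 1 had 19.9 to 71.2, and the other pairs of that group 4.69 to 16.5. That library thus stood apart from its group over the panel, and what sets it apart was not tested. Pairs within normoxia 0 h had 9.18 to 31.6. Other pairs were not examined.

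Genes were filtered with filterByExpr, which left 453, scaled with TMM and tested in R 4.3.3 with edgeR 4.0.16 (quasi-likelihood F test), all 9 groups in 1 fit (44 residual degrees of freedom, common biological coefficient of variation 26.0%). Calls had a Benjamini-Hochberg adjusted p under 0.05 over all 453 genes. A standard error is the log2 change divided by the root of F. On simulated data for hypoxia 12 h against normoxia 0 h with 447 genes, 65.5% of 1.5-fold, 82.2% of 2-fold and 98.5% of 4-fold changes were recovered and 6 unchanged genes were called. The simulation drew genes and libraries independently and held no difference such as that at the score gap. Its rates therefore need not hold for these libraries. Alternatives were DESeq2 1.42.0, library totals or reference genes as scaling, no filter, each technical replicate alone, a replicate block, a fit of the compared groups alone, normoxia 0 h replicate 1 from its technical replicate 2, and leaving out each library or those above the score gap.

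Genes named are the 12 largest rises and 12 largest falls among called genes, a fixed set of regulators and markers, and up to 3 called members in each direction of each list. Outside this rule, and chosen after their values were seen, are MYLK, DPT, MEF2A, MEF2C, IL15, DIO2, ENSGALG00000012061, MDH2 and CPT1A, and the further called list members that are named without values. The latter and CPT1A are not in the counts of named genes. Also outside the rule and those counts are CDH5, ENG, PECAM1, CFD, PTPRC, CD86, IL1B, PENK and PGAM1. Of these IL1B, PENK, PTPRC and PGAM1 were named after their values were seen. The members and lists were chosen with earlier results of these data known, and the list of mitochondrial carriers after the panel names were seen.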

Additional observations from a re-analysis of the deposited data

Results flagged for a closer look

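In 9 of 196 combinations of a named gene and a group examined, 1 library was set apart by a gap wide against the range of its group. Chance flags about 1 in 20 such groups, so 9 of 196 is no excess over chance. The gap can be small against the level itself, as for PIK3CA. CAPN3 stood at 350.3 CPM in hypoxia 12 h replicate 4, while the other libraries of the group lay between 161 and 227 CPM. MYH1D stood at 1801 CPM in normoxia 0 h replicate 2, while the other libraries of the group lay between 1072 and 1272 CPM. NOTCH1 stood at 614 CPM in hypoxia 12 h replicate 5, while the other libraries of the group lay between 343 and 443 CPM. TGFB1 stood at 492 CPM in hypoxia 12 h replicate 5, while the other libraries of the group lay between 307 and 372 CPM. PIK3CA stood at 2229 CPM in normoxia 0 h replicate 5, while the other libraries of the group lay between 2349 and 2394 CPM. GREM1 stood at 3148 CPM in hypoxia 12 h replicate 3, while the other libraries of the group lay between 2701 and 2860.2 CPM. APOA1 stood at 933 CPM in hypoxia 12 h replicate 6, while the other libraries of the group lay between 1106 and 1206 CPM. RASD1 stood at 852 CPM in hypoxia 12 h replicate 1, while the other libraries of the group lay between 1549 and 1847 CPM. SLC25A26 stood at 2521 CPM in normoxia 0 h replicate 5, while the other libraries of the group lay between 2136 and 2220.3 CPM.

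The change over 12 h differed between hypoxia and normoxia for 42 of the 98 named genes tested, against 81 of all 453 genes (17.9%). The test was edgeR on hypoxia 12 h against normoxia 12 h (Benjamini-Hochberg adjusted p under 0.05). Many named genes were picked by their change from 0 h to 12 h in hypoxia. That choice used the same hypoxia 12 h libraries, so the higher share among named genes may be partly built in. Values are log2 differences, positive where the level was higher in hypoxia. In 19 genes the difference was also called without the libraries above the score gap, where 25 of all 453 genes were called. Of these the level in hypoxia was higher for EXFABP 3.60 and COCH 2.09, and lower for CCL5 -3.36, MSTN -2.34, TNFRSF1B -2.06, ENSGALG00000012061 -2.05, ELOVL4 -1.95, ELOVL1 -1.76, MYLK -1.67, NPY -1.43, ELOVL3 -1.31, EDNRB -1.27, IGF2 -1.23, IL15 -1.19, GPC3 -0.92, PPARGC1A -0.83, TLL1 -0.83, DPT -0.60 and MDH2 -0.59. In the other 23 it was not called without those libraries. Of these the level in hypoxia was higher for CCL20 2.15, COL12A1 1.73, ENO1 1.34, PVALB 1.32, FGFR3 1.06, HK2 0.81, MYH1E 0.63, RASD1 0.61, IL6 0.59, SLC25A43 0.40, NCAM1 0.29, FST 0.28, BHLHE40 0.24 and TGFBR3 0.23, and lower for ITGA7 -0.87, MEF2C -0.76, MEF2A -0.75, SLC25A13 -0.74, DIO2 -0.71, HEY1 -0.64, CDKN1A -0.52, BECN1 -0.47 and TXNRD1 -0.44. The genes MYLK, DPT, MEF2A, MEF2C, IL15, DIO2, ENSGALG00000012061 and MDH2 were chosen after their values were seen. Leaving out a single library ended the call of COL12A1, HEY1, ELOVL3, HK2, NCAM1, TGFBR3, BECN1, TXNRD1, RASD1, MEF2A, MEF2C and DIO2 (adjusted p up to 0.203). The call of COL12A1 ended without hypoxia 12 h replicate 3 or 6 or normoxia 12 h replicate 1, 3 or 4. The call of HEY1 ended without hypoxia 12 h replicate 2, 3 or 6 or normoxia 12 h replicate 4. The call of ELOVL3 ended without hypoxia 12 h replicate 1, 2, 5 or 6 or normoxia 12 h replicate 4 or 5. The call of HK2 ended without normoxia 12 h replicate 3. The call of NCAM1 ended without hypoxia 12 h replicate 2. The call of TGFBR3 ended without hypoxia 12 h replicate 2, 3, 4 or 6 or normoxia 12 h replicate 1, 2, 3, 5 or 6. The call of BECN1 ended without hypoxia 12 h replicate 3 or 6 or normoxia 12 h replicate 4. The call of TXNRD1 ended without normoxia 12 h replicate 4. The call of RASD1 ended without hypoxia 12 h replicate 3 or normoxia 12 h replicate 2 or 6. The call of MEF2A ended without hypoxia 12 h replicate 1, 2, 3, 5 or 6 or normoxia 12 h replicate 1, 4 or 6. The call of MEF2C ended without hypoxia 12 h replicate 1, 2, 3 or 6 or normoxia 12 h replicate 1, 2, 4 or 6. The call of DIO2 ended without hypoxia 12 h replicate 1, 2, 3 or 4 or normoxia 12 h replicate 1, 4 or 5.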

How the results depend on the processing

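The count of genes called in hypoxia 12 h against normoxia 0 h stayed within 1.5 times of 123 under every alternative run, from 87 with reference genes as scaling to 152 with the compared groups alone in the fit, and from 101 (without normoxia 0 h replicate 1) to 124 with single libraries left out. No gene among the 123 took the other direction in any of these. The 123 were picked by a test on the same libraries, so this adds little to that test. For hypoxia 12 h against normoxia 12 h the count moved from 81 to 44 with reference genes, 46 with technical replicate 1 alone, 132 with the compared groups alone and 25 without the libraries above the gap. Single left-out libraries gave 52 (without hypoxia 12 h replicate 3) to 99 (without hypoxia 12 h replicate 1). For normoxia 12 h against normoxia 0 h the count moved from 82 to 54 without the libraries above the gap, with 69 to 89 for single left-out libraries. The causes of these moves were not tested.

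Of 76 named genes called in hypoxia 12 h against normoxia 0 h all kept their sign in every setting, 56 kept their call with each single library left out and 49 in every setting. The 76 had passed a test on these same counts, which every setting reuses, so the kept signs add little to that test. Calls were lost in 18 genes with reference genes, 18 and 13 with technical replicates 1 and 2 alone and 17 without the libraries above the gap. With a replicate block in the fit 131, 110 and 102 genes were called, in the order of the comparisons above. Correlations between libraries of the same number at 0 h and at 12 h in hypoxia were 0.69, -0.12, 0.06, -0.20 and 0.36, and 2 of 5 libraries matched their own number best, and between same-numbered 12 h libraries in normoxia and hypoxia they were 0.25, -0.26, -0.17, 0.39, 0.20 and 0.02. Since not every pair was above 0.1, the numbers were not taken as pairs, although replicate 1 lay above the score gap in 8 of 9 groups. Total counts at 12 h also followed the same order of replicate numbers in hypoxia and normoxia, from replicate 4 (232043 and 296563) to replicate 5 (1252578 and 1448544). At 0 h replicate 2 (total 311436) matched hypoxia 12 h replicate 4 best (0.42), and replicate 4 matched replicate 6 best (0.52). Low correlations of equal numbers therefore cannot exclude pairs, which the main tests ignore. What libraries of 1 number share was not tested. The block called HIF1A (adjusted p = 0.0227) and CDKN1A (0.0395) and ended the calls of MYH1B (0.0615) and SLC25A26 (0.0577). Depth limits what can be said of genes with few reads, such as CCL20, COL12A1 and WNT4.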
